A study of Mus musculus with 6 samples.

Results

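The genes described here encode the proteins of the cytosolic ribosome, the particle that translates messenger RNA in the cytoplasm. They were taken from the count table by name: Rpl or Rps followed by a number, Rplp0 to Rplp2, and Rpsa, without names holding -ps and without the S6 kinases. The rule found 88 of the 34745 rows, 53 with large subunit names and 35 with small subunit names. It leaves out core subunits with names of another form, among them Fau and Gnb2l1 (now called Rack1). It takes in a few genes that are not core subunits, such as Rps19bp1, which encodes a protein that binds Rps19. Of the 88 rows, 86 passed the filter on low counts and were tested, 51 large and 35 small. Rpl10l was at 0 counts in all 6 libraries and Rpl3l held at most 10 counts in any library, and neither was tested.

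The study compared cardiac macrophages of Lgmn KO mice with those of WT mice, 3 libraries each, numbered 1, 2 and 4 in the Lgmn KO group and 1, 2 and 3 in the WT group. Lgmn encodes legumain, a lysosomal protease. All mice were C57BL/6 and 8 weeks old per the labels, and the series' design places both groups after myocardial infarction. The labels mention ligation of a coronary artery or a sham operation without stating which animal had which, and they do not give the time after surgery, the deleted part of Lgmn or whether animals were pooled. Hearts were digested with enzymes, and staining used antibodies to CD45, CD64 and CD11b. Nothing in the labels says that libraries of a group came from separate animals, so the spread between them may be technical.

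A eukaryotic ribosome is built from a small subunit, which holds the messenger RNA and decodes it, and a large subunit, which joins amino acids and releases the growing chain through an exit tunnel. The proteins are needed in fixed proportions, and most vertebrate ribosomal protein mRNAs share a start of C followed by a run of pyrimidines, the TOP motif, through which mTORC1 signalling and the protein Larp1 govern their translation and stability. In macrophages, as in other cells, these mRNAs are among the most abundant, and each parental gene has left many processed copies in the genome. Such copies can take reads that belong to the parental gene.

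The TOP start is shown for the members whose annotated first base begins such a run. RefSeq start sequences (GRCm38.p6) were found for 67 of the 88 members. At the annotated first base, 14 of these 67 (20.9%) had C followed by at least 4 further C or T on the sense strand, against 813 of all 27025 symbols with an entry (3.01%). A start annotated 1 or a few bases away from the true one would not be counted. The following 8 of the 14 span both subunits and lengths of the run from 5 to 13 bases, with 10 bases before the start in lower case and the run in capitals.
Rpl35a: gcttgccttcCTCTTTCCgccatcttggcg
Rpl15: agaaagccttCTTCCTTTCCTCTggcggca
Rpl38: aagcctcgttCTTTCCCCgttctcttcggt
Rplp2: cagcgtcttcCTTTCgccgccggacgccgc
Rps6: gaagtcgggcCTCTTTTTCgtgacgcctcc
Rps21: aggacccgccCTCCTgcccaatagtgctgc
Rps27: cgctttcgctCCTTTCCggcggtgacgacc
Rps27rt: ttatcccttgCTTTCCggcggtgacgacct
The bases printed for Rpl35a lie at chr16:33056472-33056501 (plus strand) and those for Rps27 at chr3:90213629-90213658 (minus strand). The row Rps27rt is a retrocopy, and its printed bases lie at chr9:114982720-114982749 (minus strand). In the window of 300 bases from 250 before to 50 after the start, on either strand, CTCTTTC was in 26.9% of members with an entry and in 9.28% of all symbols. CTCTTTC can overlap the pyrimidine run itself. CCGGAAG, the core bound by ETS factors, was in 38.8% of members and 9.93% of all symbols. TATAAA was in 10.4% of members and 15.7% of all symbols, and AAGATGGC in 8.96% and 3.19%. These matches describe letters in a window and were not tested for binding. The 14 members with the run had, for Lgmn KO relative to WT, a median log2 fold change of -0.20, and the 51 tested members with an entry but no run had -0.19.

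Copies of ribosomal protein genes are nearly letter for letter the same, which limits which row a read can be counted on. The stretches below show 3 members and a copy of each that has a row in the table, around the single base that tells the coding sequences apart, from GENCODE M21 transcripts. The capital is that base, and positions count from 1 at the A of the start codon.
Rpl9: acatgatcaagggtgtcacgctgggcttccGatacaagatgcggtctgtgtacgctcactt
Rpl9-ps6: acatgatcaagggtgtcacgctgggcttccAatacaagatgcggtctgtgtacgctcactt
Rpl23a: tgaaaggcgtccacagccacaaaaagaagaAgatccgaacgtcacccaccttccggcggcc
Rpl23a-ps3: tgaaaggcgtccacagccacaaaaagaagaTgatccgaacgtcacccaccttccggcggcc
Rpl37: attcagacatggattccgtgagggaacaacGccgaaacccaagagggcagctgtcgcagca
Rpl37rt: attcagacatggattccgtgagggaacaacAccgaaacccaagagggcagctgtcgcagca
The substitutions are G266A in Rpl9-ps6, A116T in Rpl23a-ps3 and G249A in Rpl37rt. The coding sequences of Rpl5, Rpl12, Rpl27 and Rps27 had no mismatch at all to Gm15500, Gm10275, Rpl27-ps3 and Rps27rt. Over 86 members with a coding sequence, 31 had no stretch of 50 bases that is theirs alone among annotated transcripts, and in 16 at least 50% of such stretches were unique. Rpl3 was unique over 4.31% of its stretches, Rpl30 over 16.9% and Rps20 over 14.3%. No other row of the table held 10% or more of the stretches of Rpl3, Rpl30 or Rps20.

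Total counts per library ran from 19546253 to 24086976. Lgmn itself was at 83.5 ± 4.91 CPM (counts per 1000000 of a library, scaled by TMM factors) in the Lgmn KO group and 2391 ± 263 in the WT group (SD, n = 3 each). The summed CPM of 7 macrophage markers on 8 rows was 5639 to 6567 in the Lgmn KO libraries and 5930 to 7078 in the WT libraries, so macrophage markers were present in all 6. Cd68, which had 0.18 on the log2 scale with overlapping groups, made up most of that sum. Of the 8 rows 5 had negative changes, and none was called. In the edgeR test described below, 5 of the 8 were lower and 0 higher at an unadjusted p below 0.05. Over all genes tested, 10.6% were lower and 6.90% higher at that threshold. Csf1r, the receptor of the macrophage growth factor, had -0.74 with groups apart (SE 0.17, adjusted p = 0.0916), and Mertk -0.24 with groups apart. Fcgr1 had -1.09, Adgre1 -0.51 and the main Itgam row -0.36, each with overlapping groups. The part of these differences in the ribosomal protein levels was not tested. Of 10 T and NK cell markers, Gzma, Cd8a, Gzmb and Nkg7 were at 0 in all Lgmn KO libraries and Ncr1 in all 6, and the sum was 0.197 to 0.562 CPM against 2.97 (WT 1), 10.2 (WT 2) and 6.51 (WT 3). The 6 fibroblast markers summed to 45.4 to 116 CPM against 132 to 180, and 6 dendritic cell markers to 3.21 to 5.09 against 5.31 to 15.6. WT 2 was also the library with the highest level of 26 of 51 large and 17 of 35 small subunit members. Called lower were 1 of 2 tested T and NK cell, 1 of 4 dendritic cell and 1 of 3 endothelial cell markers. Over all genes tested, 0.478% were called lower. None of the 5 tested fibroblast markers was called, but 4 were lower at an unadjusted p below 0.05. No tested marker of B cells, neutrophils, cardiomyocytes or erythrocytes was called. The part of these other cells in the results was not tested. In bulk libraries a lower share of a cell type and less RNA per cell cannot be told apart.

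Ribosomal protein genes as a group lay lower in Lgmn KO than in WT macrophages, with a median fold of 0.869, and a single one of them, Rpl3, passed the test. The test was edgeR's quasi-likelihood test with Benjamini-Hochberg adjustment over all 12546 genes tested, and a gene was called at an adjusted p below 0.05. All adjusted p-values below are from it. Called lower were 1 of 51 large and 0 of 35 small subunit members, and called higher 0 of either. Over all genes tested, 0.789% were called, 0.478% lower and 0.311% higher. DESeq2 called 10 members, all lower, and 5.45% of all genes. At an unadjusted p below 0.05, 19 large and 14 small members were lower and 1 of each was higher. Over all genes tested 10.6% were lower and 6.90% higher at that threshold.

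The direction was shared by both subunits. The median log2 fold change was -0.20 for the large subunit (quartiles -0.35 and -0.07) and -0.20 for the small subunit (-0.31 and -0.10), and it was -0.00 over all genes tested. The fitted change was below 0 for 41 of 51 large and 32 of 35 small members, and for 50.4% of all genes tested. Every Lgmn KO library was below every WT library for 23 large and 12 small members, 40.7% of the 86. The same held for 13.0% of all genes tested. The reverse held for 2 large members, Rpl9 and Rpl39l, and for Rps19bp1 in the small group, against 10.7% of all genes tested.

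**Figure D1:**
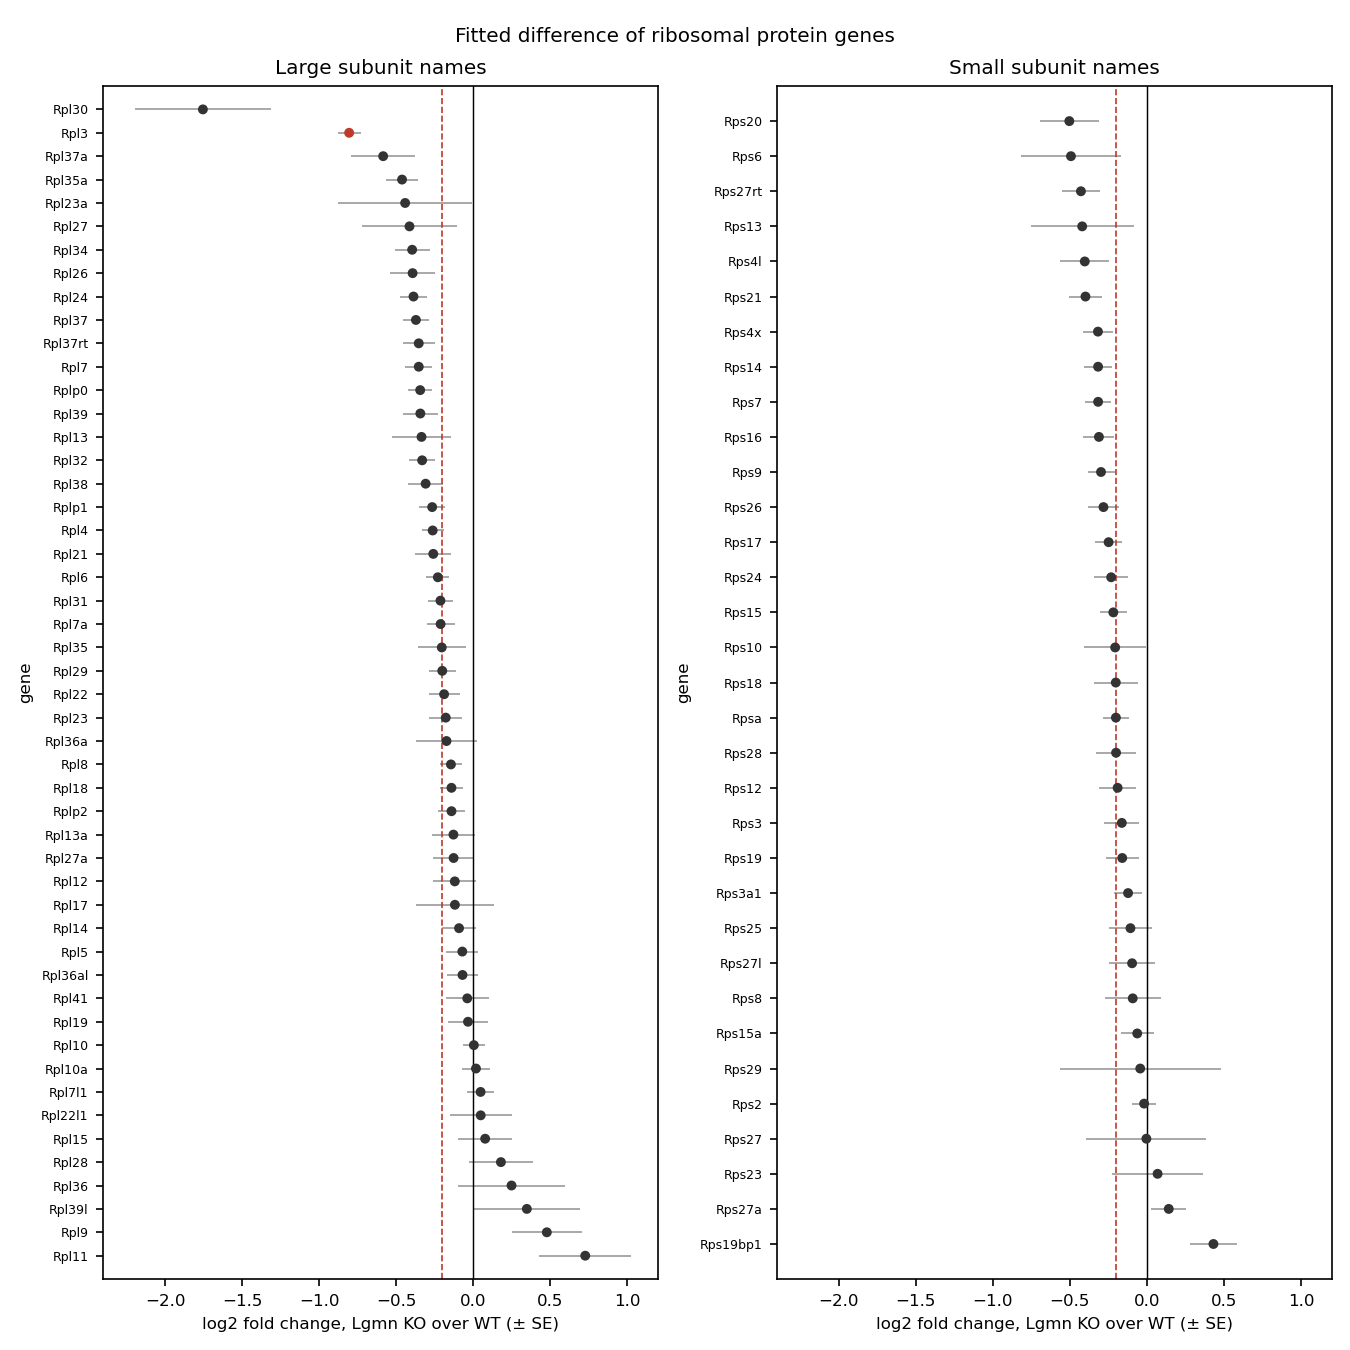
Fitted log2 fold change (Lgmn KO over WT, horizontal axis) of tested members with the standard error as a bar, large subunit names on the left and small on the right, ordered by value. The dashed line is the median over all tested members of the subunit (-0.20 in both), and the single red point is Rpl3, the member with an adjusted p below 0.05.

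The shared direction was most frequent among members with many counts. Among the 51 members with a mean of at least 1000 counts per library, 48 had a negative change, the median was -0.23, and 30 (58.8%) had every Lgmn KO library below every WT library. Among all 3869 genes tested with at least that mean, 12.4% were non-overlapping in this direction and the median change was 0.02. The 20 members with a mean of 100 to under 1000 counts had a median of -0.18, and the 15 with a mean under 100 counts had -0.04, with 9 of 15 negative. By sequence, the 14 tested members with at least 50% unique stretches had a median of -0.18 with 11 negative, and the 31 without any unique stretch had -0.13 with 24 negative.

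The libraries did not all sit with their group. Large subunit members summed to 5678, 5062 and 5045 CPM in Lgmn KO 1, 2 and 4 and to 6086, 6674 and 6156 CPM in WT 1, 2 and 3. The groups did not overlap for this sum, at 5261 ± 360 against 6305 ± 321 (SD, n = 3 each). Small subunit members summed to 4943, 4233 and 4244 CPM in Lgmn KO 1, 2 and 4 and to 4906, 5528 and 5168 CPM in WT 1, 2 and 3. Here Lgmn KO 1 lay above WT 1, and the groups overlapped. All 88 rows together held 1.06%, 0.930% and 0.918% of the counts in the Lgmn KO libraries and 1.12%, 1.22% and 1.13% in the WT libraries, or 0.968% ± 0.0767 against 1.155% ± 0.0542.

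As log2 CPM relative to the mean of the 6 libraries, the median small subunit member was at 0.09 in Lgmn KO 1, -0.21 in Lgmn KO 2 and -0.17 in Lgmn KO 4, and at 0.05, 0.16 and 0.09 in WT 1, 2 and 3. Lgmn KO 1 was thus within the WT range for the small subunit. For the large subunit it was at -0.01, between the other Lgmn KO libraries (-0.15 and -0.17) and the WT libraries (0.07 to 0.19). Lgmn KO 4 was the lowest library for 22 large and 17 small members, and Lgmn KO 2 for 19 and 14.

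**Figure D2:**
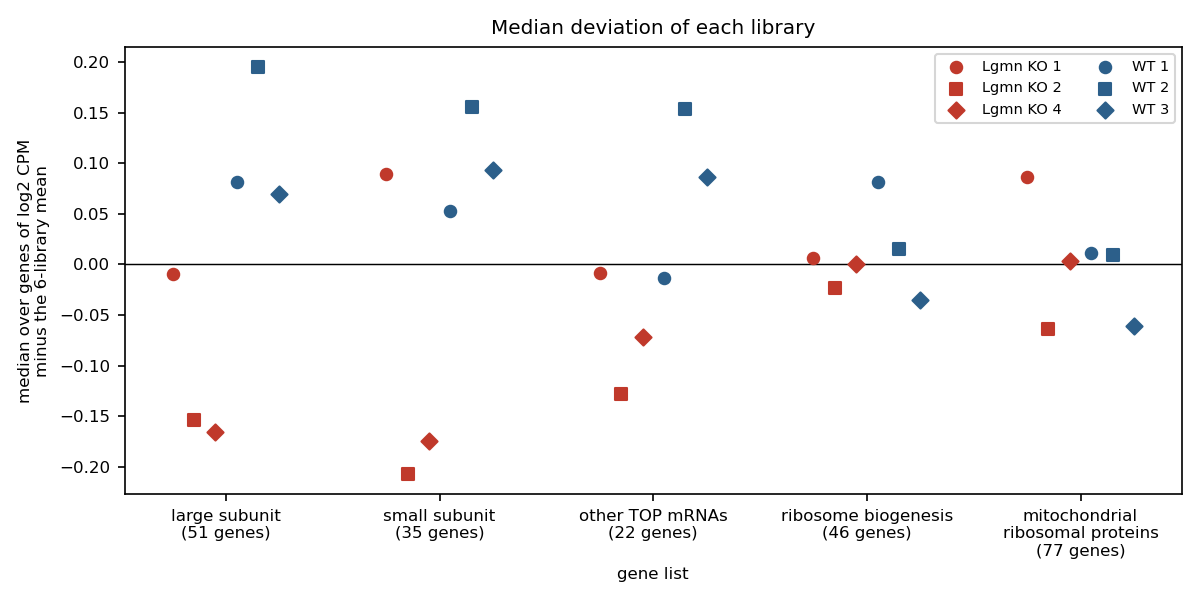
Median over the genes of each list of log2 CPM minus the mean of the 6 libraries (vertical axis), 1 point per library, red for Lgmn KO and blue for WT. In both subunits Lgmn KO 2 and 4 lie lowest and WT 2 highest, and Lgmn KO 1 lies among the WT libraries for the small subunit (0.09). The medians of ribosome biogenesis and mitochondrial ribosomal protein genes do not separate the groups in this way. In the mitochondrial list Lgmn KO 1 lies highest (0.09) and Lgmn KO 2 lowest (-0.06), next to WT 3 (-0.06).

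Rpl3, a large subunit protein that reaches toward the peptidyl transferase centre, fell in Lgmn KO macrophages. Rpl3 (ENSMUSG00000060036, chromosome 15, minus strand) was at 104, 97.2 and 106 CPM in Lgmn KO 1, 2 and 4 and at 172, 191 and 173 CPM in WT 1, 2 and 3. The 3 Lgmn KO libraries lay close together and far below the WT libraries. The means were 102 ± 4.56 and 179 ± 11.0 CPM (SD, n = 3 each), a fold of 0.572 and a log2 fold change of -0.81 (SE 0.07, adjusted p = 0.0126). The call was lost without Lgmn KO 2, where the change was -0.77 and the adjusted p 0.0812.

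Rpl30 had the largest fitted change of all members and did not pass the test. Rpl30 encodes a large subunit protein that also binds the RNA element that directs selenocysteine insertion. Rpl30 (ENSMUSG00000058600, chr15:34440505-34443640, minus strand) was at 12.5, 52.0 and 48.2 CPM in Lgmn KO 1, 2 and 4 and at 122, 127 and 130 CPM in WT 1, 2 and 3. All Lgmn KO libraries were low, and Lgmn KO 1 was far below the other two. The means were 37.6 ± 21.8 and 127 ± 4.09 CPM, with a log2 fold change of -1.75 (SE 0.44, adjusted p = 0.107). Without Lgmn KO 1 the change was -1.33 and the adjusted p 0.0113. In the authors' deposited table, q-values below 0.05 stood beside Rpl3 (1.52e-07) and Rpl30 (9.89e-05) and beside no other member, both lower in Lgmn KO. Over all rows of the authors' deposited table with a q-value, 2.80% were below 0.05 and lower, so 2 of 87 members is not above that share. Rpl30 shares 616 exonic bases with D730044K07Rik on the opposite strand, and whether the counting used strand is not stated.

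**Figure D3:**
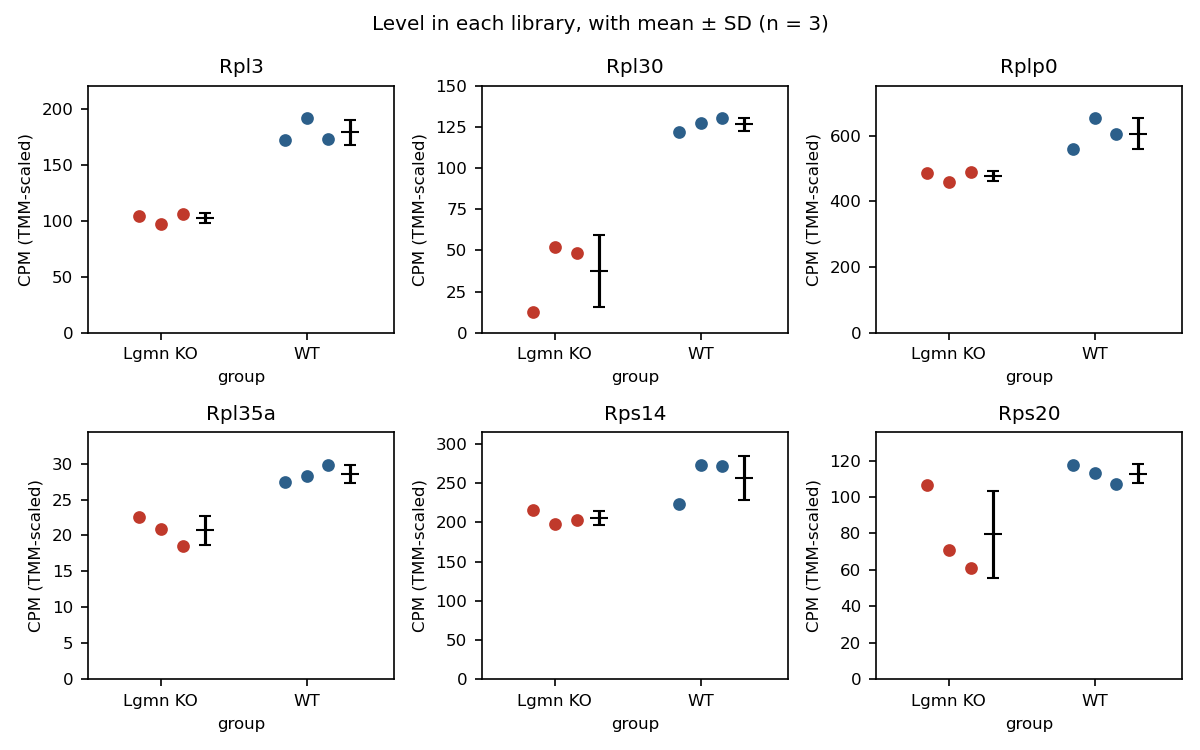
CPM (vertical axis, from 0) of Rpl3, Rpl30, Rplp0, Rpl35a, Rps14 and Rps20 in each library, with the mean and SD of the 3 libraries of a group in black. Rpl3 and Rpl30 show the widest separation between Lgmn KO (red) and WT (blue). Rps20 shows Lgmn KO 1 next to the WT libraries.

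The P stalk recruits the elongation factors that hydrolyse GTP, and its 4 proteins all had negative changes, none of them called. Rplp0, the scaffold of the stalk, was at 485, 460 and 488 CPM in Lgmn KO 1, 2 and 4 and at 560, 653 and 606 CPM in WT 1, 2 and 3 (chr5:115559467-115563727, plus strand). The groups did not overlap, with a log2 fold change of -0.34 (SE 0.08, adjusted p = 0.0844). Gm8730, a processed copy with its own row, shares 39.2% of the Rplp0 stretches of 50 bases and held 4598, 3969 and 4548 counts in the Lgmn KO libraries against 5168, 6115 and 6550 in the WT libraries. Rplp1, one of the acidic proteins that bind factors, had the highest level per length of all members, 776 FPKM on average, and its fitted change was -0.27 (adjusted p = 0.173). Its Lgmn KO libraries, at 369, 344 and 334 CPM, lay below its WT libraries, at 380, 457 and 423 CPM. Rplp2, its partner, and Rpl12, at the base of the stalk, had changes of -0.14 and -0.12, and their groups overlapped.

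Members at the peptide exit tunnel gave 9 negative changes of 9 with a median of -0.21, and in 4 of them every Lgmn KO library lay below every WT library, as in 13.0% of all genes tested. Rpl4, whose loop narrows the tunnel, was at 610, 537 and 558 CPM in Lgmn KO 1, 2 and 4 and at 682, 704 and 660 CPM in WT 1, 2 and 3. No Lgmn KO library reached a WT library, and the log2 fold change was -0.26 (adjusted p = 0.129). Rpl26 had -0.39 with overlapping groups (adjusted p = 0.223), and Rpl39 had -0.34 with groups apart (adjusted p = 0.185).

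Other large subunit members with small p-values included Rpl35a and Rpl37. Rpl35a, which is mutated in some families with Diamond-Blackfan anaemia, was at 22.6, 21.0 and 18.5 CPM in Lgmn KO 1, 2 and 4 and at 27.4, 28.2 and 29.9 CPM in WT 1, 2 and 3, a log2 fold change of -0.46 (SE 0.10, adjusted p = 0.0837). Rpl37 was at 49.0, 47.0 and 44.3 CPM against 57.6, 66.2 and 57.9, a change of -0.37 (SE 0.08, adjusted p = 0.0866). In both the groups were apart and neither was called. Rpl8, which lies near the peptidyl transferase centre and was second to Rplp1 in level per length at 604 FPKM, had a change of -0.14 (adjusted p = 0.342).

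The 5S RNA particle, formed by Rpl5 and Rpl11 with 5S ribosomal RNA, is known for binding Mdm2 when ribosome assembly fails. On their own rows the 2 genes went apart, with log2 fold changes of -0.07 for Rpl5 and 0.73 for Rpl11 (adjusted p = 0.781 and 0.268). Rpl11 had the highest fitted change of the large subunit, on 36, 47 and 55 counts in Lgmn KO 1, 2 and 4 and 23, 25 and 43 counts in WT 1, 2 and 3. These are few counts, and the groups overlapped. Beside them, the near-identical copy Gm10036 held 1532, 1376 and 1489 counts in the Lgmn KO libraries against 1532, 1924 and 1930 in the WT libraries.

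Small subunit members of the mRNA channel and the decoding site gave 9 negative changes of 10 with a median of -0.20. Rps14, on the platform of the small subunit, was at 216, 198 and 203 CPM in Lgmn KO 1, 2 and 4 and at 224, 274 and 272 CPM in WT 1, 2 and 3. The groups were apart, with a log2 fold change of -0.32 (SE 0.09, adjusted p = 0.147). Rps15, the small subunit member with the highest level per length at 508 FPKM, had a change of -0.22 with overlapping groups (adjusted p = 0.264), and Rps26 had -0.28 with groups apart (adjusted p = 0.206). Rpsa, also known as the laminin receptor, had -0.20 with groups apart (adjusted p = 0.279).

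Outside that list, Rps20 had the lowest fitted change of the small subunit. It was at 107, 70.8 and 61.0 CPM in Lgmn KO 1, 2 and 4 and at 118, 113 and 107 CPM in WT 1, 2 and 3 (chr4:3831334-3835665, minus strand). Lgmn KO 1 was next to WT 3, while Lgmn KO 2 and 4 were well below all WT libraries. The log2 fold change was -0.50 (SE 0.19, adjusted p = 0.232). Rps21 had -0.40 and Rps7 -0.32, both with groups apart (adjusted p = 0.116 and 0.121). Rps6, the protein that S6 kinases phosphorylate, was counted at 1.38 to 3.13 CPM only and had a change of -0.49 (adjusted p = 0.491). Rps6 had no stretch of 50 bases of its own. In the annotation 9 other genes each held 10% or more of its stretches, none of them with a row in the table. Whether its low count comes from these copies was not tested.

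The listed paralogs and name matches that are not core subunits were split in direction. Of the 8 tested, 4 had positive and 4 negative changes, with a median of -0.01. Rps19bp1, which encodes a protein that binds Rps19 and the deacetylase Sirt1, was at 30.6, 22.6 and 23.8 CPM in Lgmn KO 1, 2 and 4 and at 21.4, 19.4 and 16.5 CPM in WT 1, 2 and 3. It lay above WT in each Lgmn KO library and had a log2 fold change of 0.43 (SE 0.15, adjusted p = 0.205), the highest of the small group. Rpl7l1 had 0.05, Rpl22l1 0.05, Rpl36al -0.07, Rpl39l 0.35 and Rps27l -0.10. Rps4l had -0.40 and Rps27rt -0.43 (adjusted p = 0.255 and 0.144). Rps4l is annotated as a processed pseudogene. Rps27rt has the same coding sequence as Rps27, and its row held 14727 counts against 112 for Rps27. Leaving Rps27rt out therefore removes most counts of that pair. Without these 8 paralogs and name matches, 69 of the 78 remaining tested members had negative changes and the median was -0.21. Rpl37rt, a processed copy of Rpl37, was not on the list and is still among the 78. It had -0.35 with groups apart (adjusted p = 0.145). Fau and Gnb2l1, core subunits that the name rule missed, had -0.16 and -0.18, each with overlapping groups.

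For 7 members, the member's own row held under 10% of the counts of the member and its near-identical copies together. Over the 6 libraries Rpl23a held 91 counts and Rpl23a-ps3 17126, Rps27 held 112 and Rps27rt 14727, and Rpl9 held 305 and Rpl9-ps6 14367. Rpl12 held 1384 and Gm10275 34761, and Rpl5 held 3142 and Gm15500 53285. In each of these pairs most counts stood on the row of the copy. How the authors treated reads that match both is not stated. The table lists 591 of the 10236 processed pseudogenes annotated in GENCODE M21.

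**Figure D4:**
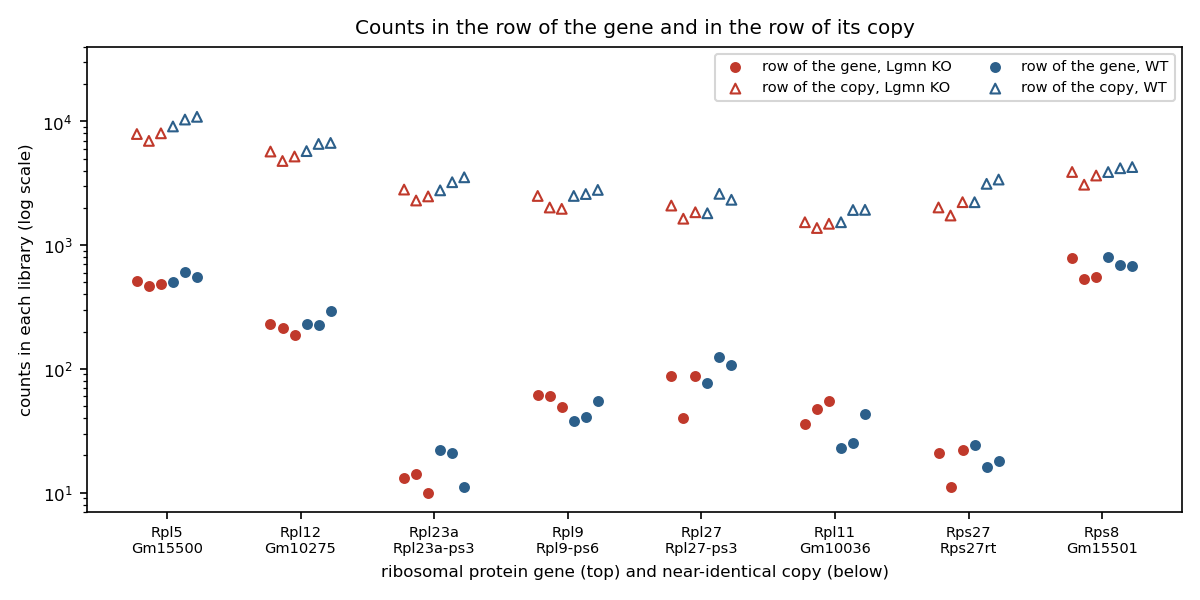
Counts (vertical axis, log scale) in each library in the row of 8 members (filled circles) and in the row of a near-identical copy (open triangles), red for Lgmn KO and blue for WT. In every pair the copy's row lies above the member's own, for example 14727 against 112 counts over the 6 libraries for Rps27rt and Rps27.

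Adding the copies' counts to the member, a choice made after seeing the data, moved some members and not others. Added were rows that share at least 50% of the member's stretches. Their names also had to start with Gm and a number, hold -ps or end in rt. Other rows that share stretches were left out, among them Wdr89 (66.2% of those of Rplp2), BC004004 (53.6% of Rpl21) and Rpl39-ps (49.0% of Rpl39). Rpl11 went from 0.73 to -0.15, Rpl9 from 0.48 to -0.15 and Rps27 from -0.00 to -0.42. Rpl5 went from -0.07 to -0.27 (SE 0.07, adjusted p = 0.106), with summed levels of 400.2 ± 18.3 CPM against 483 ± 20.5 CPM in WT (SD, n = 3 each) and groups apart. All 7 members whose own row held under 10% had a negative change after adding, against 5 of 7 on their own rows. With copies added, 75 of 84 tested members had negative changes, and Rpl3 was still the single call. Rps19bp1 (0.43 on its own row) had no copy to add, and Rpl15 had 0.08 with and without its copy. Exonic bases were shared with an opposite-strand gene by 19 members, 16 of them with a gene that has a row in the table.

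Other mRNAs with a TOP start encode elongation factors, initiation factor subunits and partners of translation, and 18 of 22 had negative changes, with a median of -0.13. None was called, 7 were lower and 0 higher at an unadjusted p below 0.05, where 10.6% and 6.90% of all genes tested were. Pabpc1, which binds poly(A) tails, was at 427, 405 and 419 CPM in Lgmn KO 1, 2 and 4 and at 527, 527 and 508 CPM in WT 1, 2 and 3. The groups were apart, with a log2 fold change of -0.32 (SE 0.06, adjusted p = 0.0600). Eef2, the translocation factor, had -0.34 and Eif3e, a subunit of initiation factor eIF3, had -0.36, both with groups apart (adjusted p = 0.0734 and 0.0853). Eef1a1, the most abundant of the list, had -0.10, and Vim, which encodes the filament protein vimentin, had 0.09, both with overlapping groups.

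Genes that make ribosomes did not lie lower as a list. The 46 ribosome biogenesis genes had a median of 0.00 with 24 positive and 22 negative changes, and none was called. Polr1d and Polr1a, subunits of RNA polymerase I, had -0.49 and -0.18 (adjusted p = 0.173 and 0.205), and Ncl, nucleolin, had 0.06. The 77 mitochondrial ribosomal protein genes, which encode the separate ribosome of the mitochondrion, had a median of 0.01 with 41 positive and 36 negative changes and none called. Mrpl46 had the smallest p among them and a fitted log2 change of 0.37 (adjusted p = 0.142).

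The 24 genes of growth control of translation had a median of 0.01 and none was called. Atf4, the transcription factor of the integrated stress response, was at 329, 349 and 330 CPM in Lgmn KO 1, 2 and 4 and at 290, 250 and 253 CPM in WT 1, 2 and 3. It lay above WT in each Lgmn KO library, with a log2 fold change of 0.35 (SE 0.08, adjusted p = 0.0856). Rheb, the GTPase that activates mTORC1, had 0.32 and Mxi1, a Myc antagonist, 0.36, both with groups apart (adjusted p = 0.105 and 0.155). Larp1, which binds the TOP start, had -0.15 (adjusted p = 0.300). Among 18 tested transcripts used as signs of RNA quality and dissociation the median was -0.05 and none was called, but 5 had an unadjusted p below 0.05, 3 higher and 2 lower. Neat1, a nuclear RNA, was at 608, 1154 and 628 CPM in Lgmn KO 1, 2 and 4 and at 501, 423 and 435 CPM in WT 1, 2 and 3 (adjusted p = 0.149). Malat1, another nuclear RNA, had 0.34 and Atf3, a stress-induced transcription factor, 0.35, both with every Lgmn KO library above every WT library (adjusted p = 0.160 and 0.152). Junb, an immediate early gene, had -0.43 with every Lgmn KO library below every WT library (adjusted p = 0.0759). The part of these transcripts in the lower ribosomal protein levels was not tested.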

How the data were processed

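Counts per gene were deposited by the authors for 3 Lgmn KO and 3 WT libraries in 1 table, with FPKM values, log2 fold changes, p-values and q-values. HISAT2, TopHat and TopHat2 2.0.9 appear in the submitters' processing notes beside a human build. The loci are those of mouse, and 61 of the 88 members have the position given by GENCODE M21 (GRCm38). The counter, its strand setting and the treatment of reads with several matches are not stated in these sources, and the last bears directly on genes with copies.

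Counts were filtered with filterByExpr, scaled by TMM and tested across all genes with edgeR 4.0.16 in R 4.3.3. The steps were tested on simulated counts. Deposited FPKM, read as the authors' values, served for levels between genes. DESeq2 1.42.0, limma 3.58.1, other scaling, filters, added copies and left-out libraries were tried.

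The members and lists were chosen with earlier results of these data known. Named were, in each subunit, every called member, the 5 of smallest p, the 3 of highest level per length and the largest and smallest change; all of the P stalk, 5S particle, paralogs and missed core subunits; and from other lists the 3 of smallest p and 2 of highest CPM. Some genes under this rule are not reported here. A few further members were named after their values were seen. The lists hold no match for Rpl26l1, Utp4, mt-Rnr1 or mt-Rnr2. Replicates of a group differed by more than counting noise, with chi-square over degrees of freedom of 14.0 to 42.7.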

Additional observations from a re-analysis of the deposited data

How the results depend on the processing

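The median change kept its sign under every alternative, from -0.25 to -0.17 for the large and from -0.30 to -0.15 for the small subunit, and no member was called higher under any. The number called lower moved. DESeq2 called 8 large and 2 small members, 10 in all, where it called 5.45% of all genes, and limma-voom called 1, with 0.367% of all genes called. Leaving out 1 library at a time gave 0 to 3 large and 0 to 5 small members. Without WT 1 the members called were 8, with 4.99% of all genes called, and without Lgmn KO 2 they were 0, with 0.0468%. Without Lgmn KO 1, Rpl30 was called beside Rpl3, with 0.202% of all genes called. With the replicate block (numbers 1 and 2, 4 libraries) 0 large and 0 small members were called, with 0.262% of all genes called, and Rpl3 had a change of -0.85 with an adjusted p of 0.0805. Deviations of same-numbered libraries correlated at 0.12 and 0.08 across genes, and 2 shared numbers do not establish pairs. Differently numbered libraries gave -0.17 (Lgmn KO 1 with WT 2) to 0.11 (Lgmn KO 4 with WT 2). Small changes near 0 took the other sign under at least 1 setting for Rpl5, Rpl12, Rpl22l1, Rpl36al and Rpl7l1, and Rpl11 did when copies were added. At totals of 19546253 to 24086976 counts, members under 100 counts carry wide errors, such as an SE of 0.39 for Rps27.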
